A study of Mus musculus with 8 samples.

Results

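miR-210 is a microRNA made from a single hairpin gene, and both of its arms were on the array used here, mmu-miR-210-3p and mmu-miR-210-5p (below without the prefix for mouse). These 2 miRNAs were chosen by name among the 1881 mouse miRNAs of the array. The study measured miRNAs in total RNA from mouse kidney on 8 single-colour arrays, 1 per sample, from males aged 28 weeks. The 4 db/db samples are labelled C57BLKS/J Iar -+Leprdb/+Leprdb, and such mice carry 2 copies of a mutated leptin receptor gene and become obese and diabetic. The 4 control samples are labelled m/m and C57BLKS/J Iar -m+/m+, while their array titles call them dbm, so whether they carried a db allele was not settled. No treatment is named for either group. Separate animals are not stated in the labels, and every p-value below therefore rests on a spread between samples that may be technical.

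miR-210 is the miRNA most widely known to be switched on by low oxygen. Hypoxia-inducible factors (HIF) bind near its gene and raise its transcription, and the 3p arm is the strand that is loaded into Argonaute and represses messenger RNAs, among them those of the iron-sulphur cluster assembly protein ISCU and, in human cells, of ephrin-A3. Kidney tubules work at low oxygen tension, and for that reason HIF and its targets are often studied in the diabetic kidney.

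The sequences are given because the array reads an arm from its 3′ end, and its probes leave most or all of the seed that selects targets unread. In the 2 mature miRNAs, from RefSeq with coordinates on GRCm38.p6, capitals mark the seed (bases 2 to 8).
miR-210-3p: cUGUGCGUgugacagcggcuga
miR-210-5p: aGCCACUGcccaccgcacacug
In the hairpin of 110 bases, also from RefSeq, capitals mark both arms, the 5p arm at bases 28 to 49 and the 3p arm at bases 66 to 87.
Mir210 hairpin: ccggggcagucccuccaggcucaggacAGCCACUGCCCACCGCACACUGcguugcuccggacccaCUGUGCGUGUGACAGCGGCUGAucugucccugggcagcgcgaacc
The gene lies on the minus strand of chromosome 7, from 141221384 to 141221493 (GRCm38.p6), with the 3p arm at 141221407 to 141221428 and the 5p arm at 141221445 to 141221466. No other gene of the RefSeq table overlaps it. The nearest are Rassf7, 2726 bases below, and Gm51460, 6713 bases above. No other of 1678 mature mouse miRNAs in RefSeq shared the seed of either arm.

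Each arm was read by 2 overlapping DNA probes with 15 spots each on every array. The probes are printed because they show which bases of the miRNA gave the signal.
16-base probe of miR-210-3p: tcagccgctgtcacac
15-base probe of miR-210-3p: tcagccgctgtcaca
13-base probe of miR-210-5p: cagtgtgcggtgg
12-base probe of miR-210-5p: cagtgtgcggtg
The 3p probes pair with bases 7 to 22 and 8 to 22 of miR-210-3p, and the 5p probes with bases 10 to 22 and 11 to 22 of miR-210-5p. The probes of an arm share their target and are not independent measurements. The longest stretch of a 3p probe's target found in another mature miRNA was 9 bases, in miR-7672-5p, and for the 5p probes it was 8 bases, in miR-7674-3p. The array design maps the 3p probes to chromosome 7, 148407355 to 148407369, and the 5p probes to 148407320 to 148407331 (mm9). That places the 3p arm above the 5p arm, whereas RefSeq places it below on the minus strand, so the design's positions within the hairpin are open to doubt.

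The scanner flagged 289 to 358 miRNAs as detected on db/db arrays and 305 to 352 on control arrays, and 269 on all 8. Log2 values of the 316 tested miRNAs had correlations of 0.989 to 0.997 between arrays of a group and 0.964 to 0.979 between groups, across miRNAs, which are not independent replicates. The kidney tubule markers chosen for the check of the tissue, miR-192-5p, miR-194-5p, miR-204-5p, miR-10a-5p, miR-30a-5p and miR-30c-5p, were detected on every array. The db/db arrays filled 1 row of the slide and the control arrays the other, so the row of the slide cannot be told apart from genotype.

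miR-210-3p was higher in the kidneys of db/db mice than in those of control mice. It was detected on all 8 arrays. Its signal, the mean of its probes after each array was scaled to a common 75th percentile (taken over the 269 miRNAs just named), was 36.3, 24.7, 25.9 and 29.5 in db/db replicates 1 to 4. In control replicates 1 to 4 it was 12.7, 15.7, 18.2 and 22.4. Every db/db array lay above every control array, but the brightest control, replicate 4, came close to the dimmest db/db array, replicate 2. The means were 29.1 ± 5.21 in db/db kidneys and 17.2 ± 4.12 in control kidneys (SD, n = 4 each).

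On the log2 scale the signal was 4.84 ± 0.25 in db/db and 4.08 ± 0.35 in control kidneys (SD, n = 4 each). The difference of 0.77 ± 0.19 (SE; 95% interval 0.33 to 1.20), a fold of 1.70, passed the test (adjusted p = 0.0124 from limma, adjusted by Benjamini-Hochberg over 316 miRNAs, as for each adjusted p below). An exact permutation test of this single value over the 70 assignments of 8 arrays to 2 groups gave p = 0.0286 (2-sided), the smallest it can give. The call is to be read against a high background, since 41.8% of the tested miRNAs passed the threshold, 24.4% as higher in db/db kidneys. Likewise 41.5% of the tested miRNAs had groups that did not overlap, 24.7% with db/db above. In total RNA of a whole organ, more cells that make a miRNA and more of it per cell cannot be told apart.

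Among all tested miRNAs, miR-210-3p had the 22nd largest increase, and 90 miRNAs had a smaller p. Most of the larger increases were of miRNAs missing on some or all control arrays. Of the 22 miRNAs with an increase at least as large, 7 were detected on all 8 arrays: miR-3102-5p, miR-3960, miR-204-5p, miR-30c-1-3p, miR-874-3p, miR-5126 and miR-210-3p. Its neighbours in the ranking were miR-874-3p, with 0.79, and miR-5126, with 0.77, above it, and miR-8110, with 0.71, and miR-34a-5p, a target of p53, with 0.64, below it (all log2 changes, all past the threshold).

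miR-210-3p varied more within the groups than most miRNAs did. Its SD on the log2 scale was 0.25 over db/db and 0.35 over control arrays, where the median SD over the tested miRNAs was 0.09 and 0.11. Only 30 of the 316 had a larger SD in db/db and 27 in control kidneys. The miRNAs compared were not matched to miR-210-3p for signal, and its signal in control kidneys was near the limit of the array (below). A Dixon gap test on the log2 values called no array an outlier in its group. The gap from db/db replicate 1, the highest, to the next array was 0.54 of the range of its group. In control kidneys the gap was 0.37 of the range at either end. With n = 4 per group this test can call only an extreme array, so it cannot show that none stood apart. The mean over the 15 spots of the 16-base probe had a standard error of 0.808 to 1.35 signal units per array before scaling.

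The 2 probes of miR-210-3p moved the same way. The 16-base probe read 46.9, 32.0, 34.5 and 38.2 in db/db replicates 1 to 4 and 17.6, 20.6, 25.4 and 31.0 in control replicates 1 to 4, as scaled signal. The groups did not overlap, though only 1 unit separated the nearest arrays; before scaling they did overlap, with 31.6 in db/db replicate 2 and 32.7 in control replicate 4. The 15-base probe was dimmer, with 25.7, 17.3, 17.3 and 20.8 in db/db replicates 1 to 4 and 7.83, 10.7, 10.96 and 13.8 in control replicates 1 to 4. The ratio of the group means, db/db over control, was 1.60 for the longer and 1.87 for the shorter probe. The control mean behind the 1.87 came from spots of which 5 of 60 were well above background, all on control replicate 4, so that its size is uncertain.

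The lower signal in control kidneys was near the limit of the array. For the 16-base probe, 58 of 60 spots on db/db arrays and 34 of 60 on control arrays were flagged as well above background. For the 15-base probe these were 30 of 60 and 5 of 60 spots. Control replicates 1 to 3 had none, nor had db/db replicate 2, and 15 of the 30 were on db/db replicate 1. The median of the negative control spots was 5.08 to 5.71 on db/db and 5.09 to 6.84 on control arrays before scaling, and the 15-base probe read 6.88 on control replicate 1, against 5.14 for that median. On control replicates 1 to 3 it read 6.88, 10.1 and 10.5, below the 95th percentile of the negative control spots, at 10.9, 14.3 and 10.7. On the other arrays it lay above that percentile. With each array's negative control median subtracted before scaling, an alternative added after seeing the data, the change of miR-210-3p became 1.14 ± 0.31 (SE), a fold of 2.20 (adjusted p = 0.0210, limma).

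miR-210-5p, the passenger arm, was not detected on any of the 8 arrays and was not tested. Its 13-base probe gave scaled means of -0.14, 1.64, -1.02 and -2.84 in db/db replicates 1 to 4 and of -3.19, 0.75, -2.74 and -1.14 in control replicates 1 to 4. Its 12-base probe lay between -5.62 and -3.47 on db/db and between -4.94 and -3.92 on control arrays. On each array both probes lay below the median of the negative control spots, and none of their spots was well above background. A difference between the groups was thus not detectable for this arm, and the changes of the 2 arms could not be compared.

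**Figure D1:**
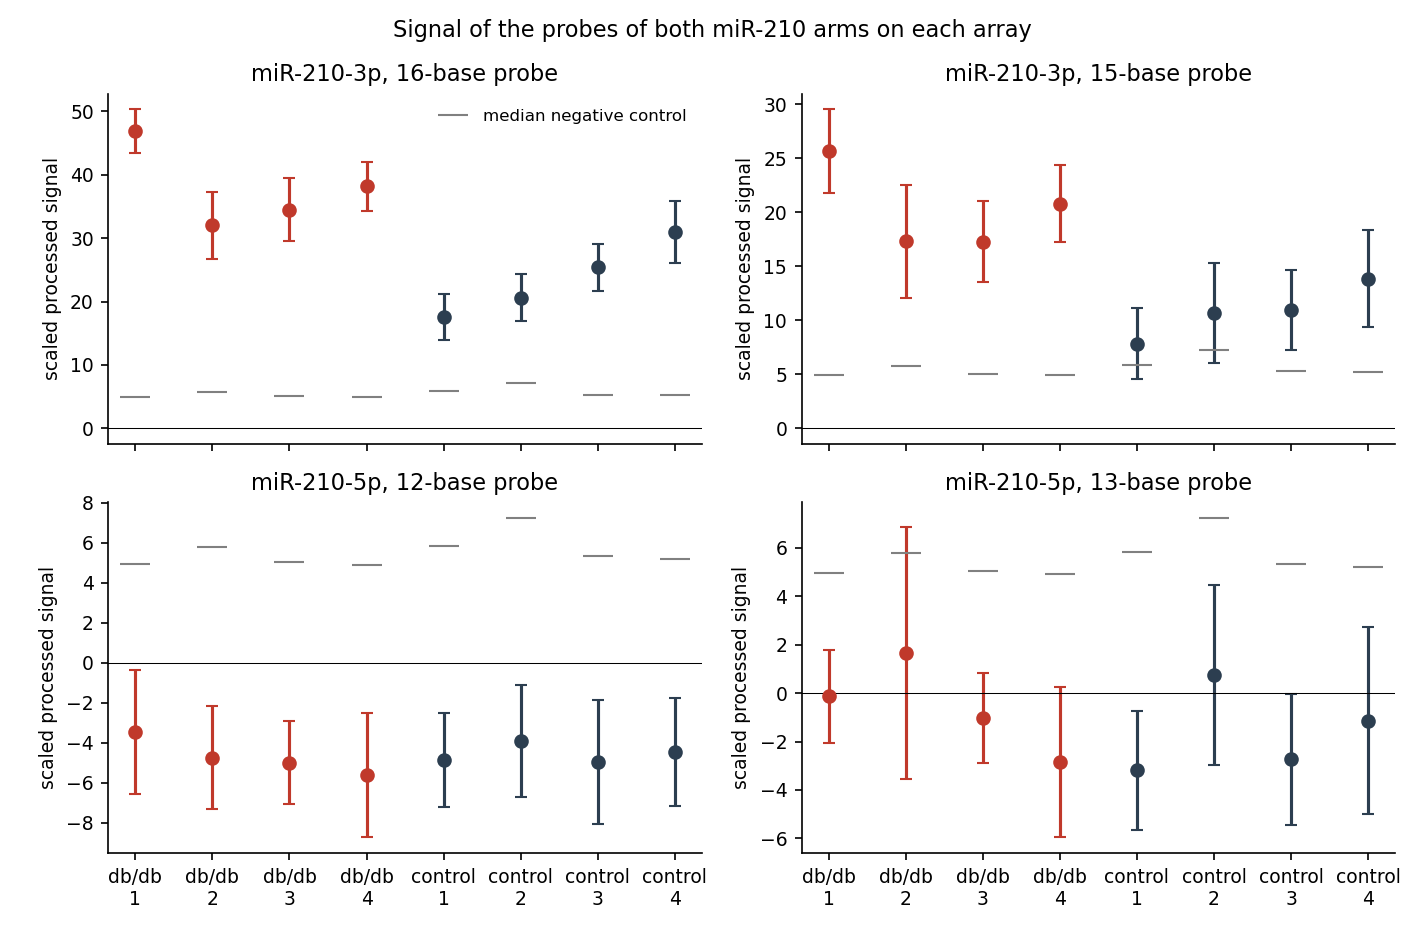
Scaled processed signal (vertical axes) of each probe of miR-210-3p (upper panels) and miR-210-5p (lower panels) on the db/db arrays (red, left) and control arrays (dark, right); points are means over the spots of a probe, bars the SD over spots, and grey dashes the median negative control of the array. Both 3p probes are higher on every db/db array than on any control array, and all 5p means lie below the negative control median.

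Array brightness moved with miR-210-3p. The log2 75th percentile of the arrays before scaling was 8.73, 8.57, 8.67 and 8.64 in db/db replicates 1 to 4 and 8.40, 8.51, 8.52 and 8.67 in control replicates 1 to 4. It was 8.65 ± 0.07 in db/db and 8.52 ± 0.11 in control (SD, n = 4 each), and the difference of 0.13 missed the threshold (exact permutation test, 2-sided, p = 0.0857). In both groups the brightest array held the most miR-210-3p even after scaling, and in control kidneys the order of the arrays by brightness was the order by miR-210-3p. In db/db kidneys it was not, as replicate 3 was brighter than replicate 4 but held less. After removing the group means, the Pearson correlation of the scaled log2 signal with brightness was 0.93 over the 8 arrays, given as a description, and 0.83 without control replicate 1 and db/db replicate 1, the arrays farthest from the median brightness. Of the 269 miRNAs detected on all arrays, only 1 other had as strong a correlation in either direction, and the median size was 0.48.

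Pairs of arrays close in brightness differed by unequal amounts. db/db replicate 3 and control replicate 4, both at 8.67, had scaled signals of 25.9 and 22.4. db/db replicate 4, at 8.64, had 29.5 against that 22.4, and db/db replicate 2, at 8.57, had 24.7 against 18.2 in control replicate 3, at 8.52. With brightness as a covariate in the fit, added after seeing the data, the change of miR-210-3p was 0.37 ± 0.10 (SE), a fold of 1.29, and passed (adjusted p = 0.0302, limma). The direction and the call thus held, with less than the 1.70-fold difference found without the covariate. Whether brightness accounts for part of the difference was not tested beyond this fit.

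**Figure D2:**
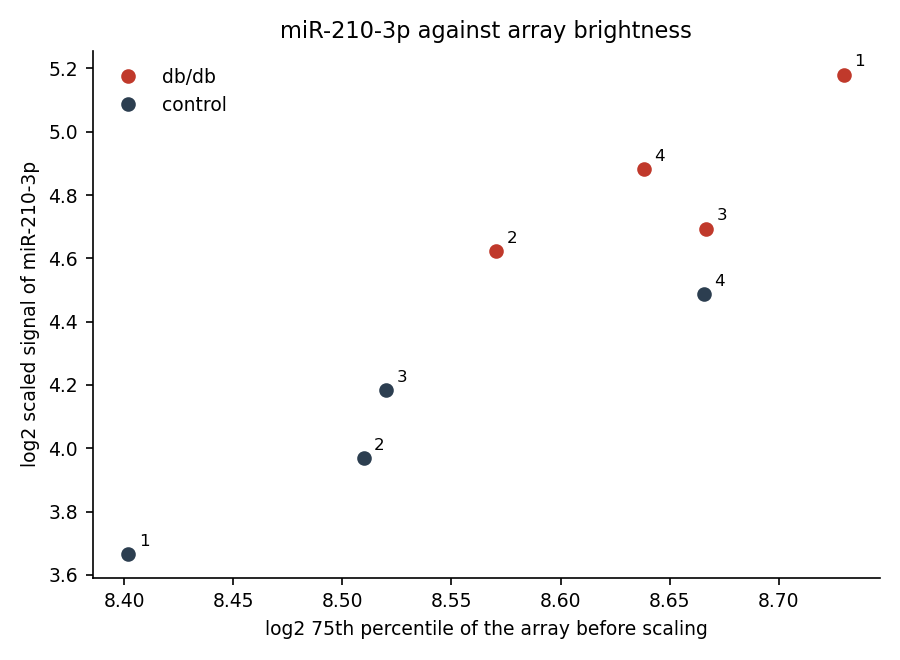
Log2 scaled signal of miR-210-3p (vertical axis) against the log2 75th percentile of the array before scaling (horizontal axis) for the db/db (red) and control (dark) arrays, each point 1 array with its replicate number. The brightest array of each group holds the most miR-210-3p, db/db replicate 3 is brighter than db/db replicate 4 but holds less, and each db/db array lies above all control arrays.

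The size of the difference also depended on how the scanner software summed the probes. Its gene total signal is the sum of the probes called detected, and for miR-210-3p it held both probes on all 4 db/db arrays and on control replicate 4, but only the 16-base probe on control replicates 1 to 3. The gene total was 17.0, 10.3, 11.6 and 13.0 in db/db replicates 1 to 4, against 3.27, 4.15, 5.14 and 10.04 in control replicates 1 to 4, before scaling. The sum of both probes was the same on the db/db arrays and control replicate 4, but 4.73, 6.29 and 7.36 in control replicates 1 to 3. From the scaled gene total the fold was 2.27 (adjusted p = 0.0152, limma), and from the sum of both probes, an alternative added after seeing the data, it was 1.70 (adjusted p = 0.0120, limma). For miR-210-3p that sum is proportional to the mean of the probes used above, so the 1.70 is not a separate estimate. The authors' deposited table follows the gene total, and its fold was 2.20 (adjusted p = 0.0246, limma on its log2 values). The change was smallest with normexp background correction, its offset of 50 and quantile normalization, at 0.17, a fold of 1.13 (adjusted p = 0.0167, limma). The processed signal of miR-210-3p before scaling was 11.2 to 40.0. An offset larger than the signal compresses a log2 change, so the 1.13 is not a lower estimate of the fold.

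**Figure D3:**
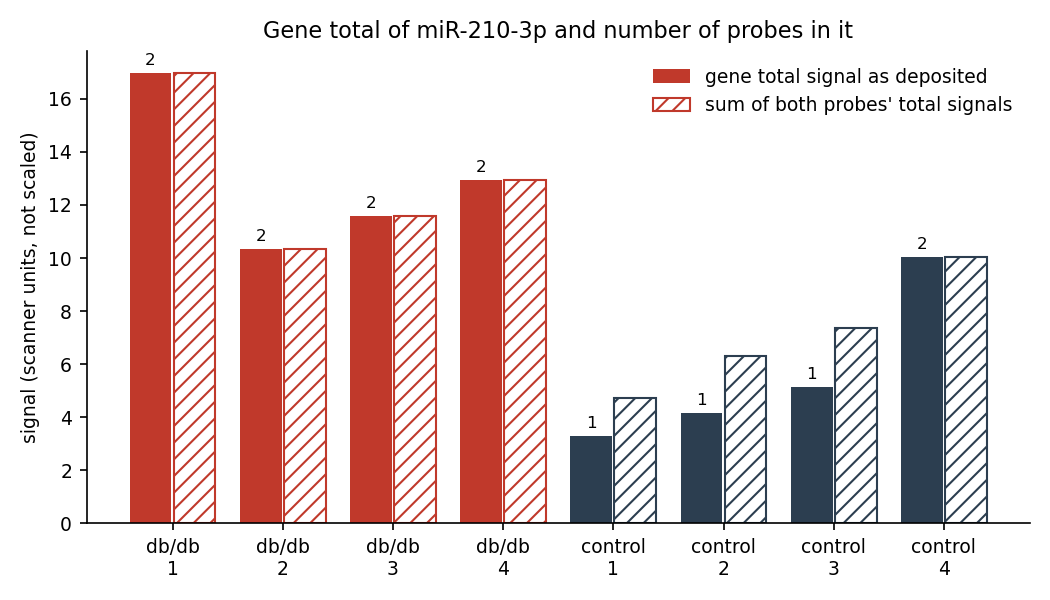
Gene total signal of miR-210-3p as deposited (filled bars) and the sum of the total signals of both its probes (hatched bars) on each db/db (red, left) and control (dark, right) array, in scanner units before scaling, with the number of probes in the deposited total above each filled bar. The bars differ on control replicates 1 to 3, where the deposited total holds 1 probe.

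**Figure D4:**
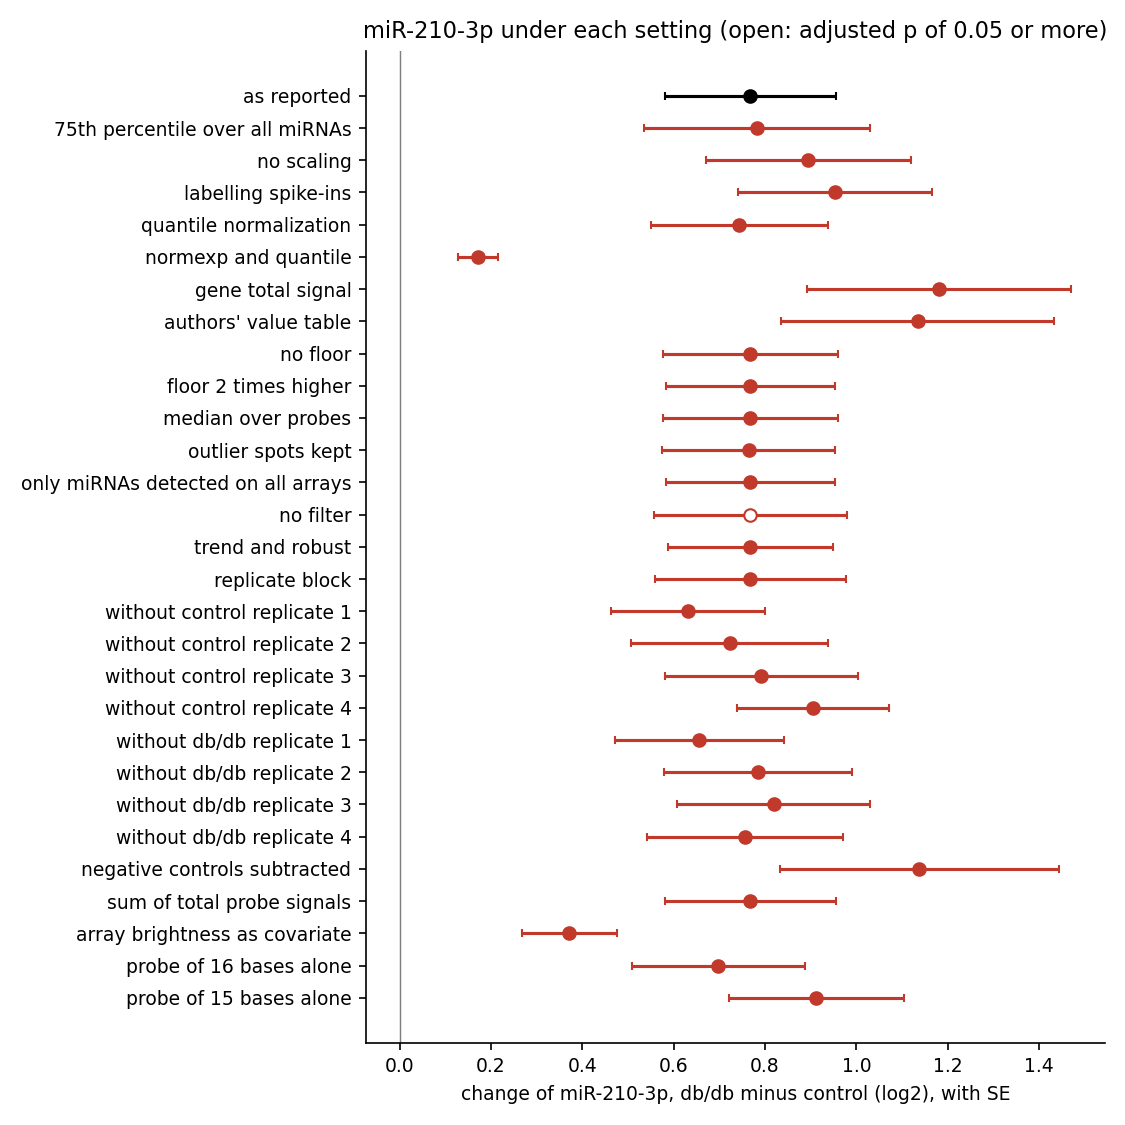
Change of miR-210-3p, db/db minus control, on the log2 scale (horizontal axis) with its SE under each setting (vertical axis); filled points have an adjusted p under 0.05 and the open point does not. All values are above 0, from 0.17 with normexp to 1.18 with the gene total signal.

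The called miRNAs among the others linked to hypoxia went both ways, as did those among all tested miRNAs, and the counts depended on the scaling (below). The miRNAs linked to hypoxia were taken from 3 lists made from general knowledge. On these lists a member's own direction in hypoxia can differ between cell types. Of 36 listed miRNAs, 29 were tested, of which 7 rose and 7 fell, against 24.4% and 17.4% of all tested miRNAs. Their median change was 0.07, beside -0.02 over all tested miRNAs. The largest increase of a tested member was the 0.64 of miR-34a-5p.

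In the list of miRNAs that rise in hypoxic cultured human cells, 5 of 16 tested members rose and 2 fell, with a median of 0.08. miR-23b-3p, a partner of miR-27b and miR-24 in a shared cluster, rose by 0.32 ± 0.03 (SE; adjusted p = 0.000320, limma). miR-181b-5p and miR-181a-5p, of a family well known in lymphocytes, rose by 0.31 and 0.23, the tubule miRNA miR-30b-5p by 0.18 and miR-26b-5p by 0.13, all on the log2 scale. miR-125b-5p, a relative of the worm miRNA lin-4, fell by 0.17, and miR-195a-5p, of the miR-15/16 family and named here after its value was seen, by 0.18. The groups of miR-195a-5p overlapped and its adjusted p was 0.0467 (limma). Fits with 1 array left out are not given for it. miR-26b-5p no longer passed when db/db replicate 2, db/db replicate 4 or control replicate 3 was left out, with changes of 0.070, 0.12 and 0.12. The same held for miR-125b-5p when db/db replicate 3 or 4 or control replicate 2 or 4 was left out, with -0.14, -0.16, -0.18 and -0.13. miR-107-3p, below, passed without db/db replicate 2, with -0.22. The members with the largest changes that did not pass were miR-107-3p, with -0.13, and miR-24-3p, with 0.11. miR-106a-5p was not found on the array by that name, and miR-181a-1-3p was detected on 3 arrays and not tested.

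In the list of miRNAs reported to act on HIF subunits or their regulators, 1 of 10 tested members rose and 4 fell, with a median of -0.10. miR-322-5p, the mouse counterpart of human miR-424, which stabilises HIF-1α in endothelial cells by repressing CUL2, rose by 0.36 ± 0.05 (SE; adjusted p = 0.000647, limma). miR-199a-5p, which represses Hif1a in rat heart muscle cells, fell by 0.32. miR-18a-5p, miR-17-5p and miR-20a-5p, all cut from the transcript of the miR-17 to miR-92a cluster, fell by 0.30, 0.22 and 0.16. miR-155-5p, which represses HIF-1α in human cells, and miR-130a-3p missed the threshold, with -0.22 and 0.12. miR-138-5p was not detected. miR-18a-5p no longer passed when db/db replicate 4 or control replicate 1 or 2 was left out, with changes of -0.27, -0.27 and -0.28. That of miR-17-5p was lost with any array but control replicate 3 or db/db replicate 2 left out, with -0.25 to -0.16. miR-155-5p passed without control replicate 1 or 3, with -0.28 each, and miR-130a-3p without db/db replicate 1, with 0.14.

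Of 7 miRNAs tied to the hypoxic or ischaemic kidney, only 3 were tested. miR-34a-5p, induced by p53, rose by 0.64 ± 0.09 (SE; adjusted p = 0.000922, limma), and miR-494-3p fell by 0.68 ± 0.18 (SE; adjusted p = 0.0179, limma). miR-21a-5p, a miRNA of kidney injury and fibrosis, missed the threshold, with 0.15 (adjusted p = 0.0828, limma). Without control replicate 1 it passed, with 0.19. Over 26 alternatives of the processing it passed in 7, with changes from 0.07 to 0.33 over all 26. miR-687, which HIF-1 induces in the mouse kidney after ischaemia, miR-489-3p and miR-127-3p were not detected on any array, and miR-668-3p was detected on 4.

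These counts moved with the scaling. With no scaling, 12 of the listed miRNAs rose and 1 fell, and with scaling to the labelling spike-ins 17 rose and 1 fell; there the median over the 316 miRNAs became 0.10 and 0.16. With a 75th percentile of all 1881 miRNAs in its place, limma called none of the listed miRNAs after adjustment, and 1 was higher and 1 lower at an unadjusted p under 0.05, while miR-210-3p kept its call (adjusted p = 0.0162, limma). The number that fell was 3 without control replicate 2 or db/db replicate 4, and 4 without control replicate 4 or db/db replicate 3. With brightness as a covariate it was 3.

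**Figure D5:**
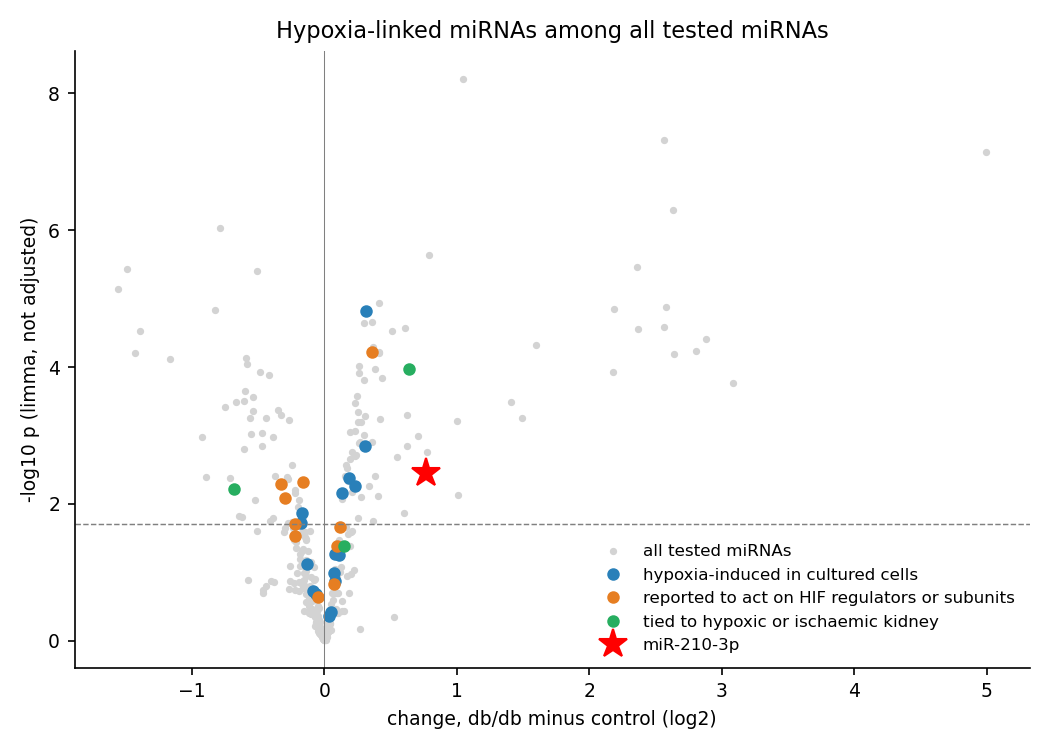
Change, db/db minus control, on the log2 scale (horizontal axis) against −log10 of the unadjusted limma p (vertical axis) for all 316 tested miRNAs (grey), the members of the 3 hypoxia lists (blue, orange and green) and miR-210-3p (red star); points on or above the dashed line have an adjusted p under 0.05. miR-210-3p lies to the right of all list members. The called list members fall on both sides of 0, as do the called miRNAs among all tested.

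Some markers of cell types differed between the groups, and their part in the change of miR-210-3p was not tested. All 4 leukocyte miRNAs fell, while miR-122-5p, miR-1a-3p and 4 of 6 tubule miRNAs rose. Over all tested miRNAs, 17.4% fell and 24.4% rose. No tested endothelial, erythroid or smooth muscle marker passed the threshold. The erythroid miRNAs miR-451a, miR-144-3p and miR-144-5p, of which 2 or 3 were detected per array, had a summed scaled signal of 646 to 3581 on db/db and 703 to 3070 on control arrays, and the groups overlapped. The sum of 4 leukocyte miRNAs, miR-142a-3p, miR-142a-5p, miR-150-5p and miR-223-3p, was 185 to 275 on db/db arrays, where 3 or 4 were detected, and 445 to 599 on control arrays. The 2 arms of endothelial miR-126a summed to 3648 to 3807 on db/db and 3913 to 4194 on control arrays. The hepatocyte miRNA miR-122-5p was at 50.2 to 133 on db/db arrays and was not detected on control arrays. The sum of the 6 tubule markers was 18440 to 19169 on db/db and 16130 to 17204 on control arrays. The smooth muscle miRNAs miR-143-3p and miR-145a-5p summed to 452 to 508 on db/db and 452 to 519 on control arrays. Of the 3 striated muscle miRNAs only miR-1a-3p was detected, at 18.2 to 23.2 on db/db and 12.7 to 18.4 on control arrays.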

How the data were processed

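The authors deposited scanner output, an intensity for every spot. Per the file headers, Agilent Feature Extraction 12.0.3.1 made it with spatial detrending on and background correction off. The authors also deposited a table of linear ratio values per miRNA. Against the gene total signal its log2 changes had a correlation of 1 across miRNAs and lay 0.17 lower, so higher means more; how its centring was chosen stays unknown. Its column medians were 0.857, 1.01, 0.994 and 0.947 for db/db and 1.11, 1.10, 1.10 and 0.980 for control replicates 1 to 4.

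Processed signals were averaged over non-outlier spots of a probe, then over a miRNA's probes. Arrays were scaled to a common 75th percentile over 269 miRNAs (those detected on each of the 8), and values under 2.80 set to that floor. The 316 miRNAs detected on all arrays of a group were tested on log2 values with limma 3.58.1 in R 4.3.3 and Benjamini-Hochberg adjustment, after tests on simulated data. Members, lists, naming rules and tests were chosen with earlier results of these data known. Named were up to 6 called and 2 other members per list, and 4 miRNAs most like miR-210-3p. The design's comparison of the arms was not run. The number of arrays limits the precision.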

Additional observations from a re-analysis of the deposited data

How the results depend on the processing

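miR-210-3p was higher in db/db kidneys under all 28 alternatives, with log2 changes from 0.17 to 1.18, and passed the threshold under 27. The exception tested all 1881 miRNAs with no filter, where the change was the same 0.77 and the adjusted p 0.146 (limma). That fit also draws its estimate of the variance from undetected miRNAs, and it holds more tests. The parts of these in the lost call were not told apart. Leaving out 1 array at a time gave changes from 0.63 to 0.91 and adjusted p from 0.00514 to 0.0372 (limma). With the title number as a replicate block the change stayed at 0.77 (adjusted p = 0.0421, limma) and 144 miRNAs were called, against 132. Such a block, another filter, trend and robust fitting or a floor 2 times as high could alter only the p of miR-210-3p. Its change could not move under them, so they say nothing of its size or direction. Deviations of same-numbered arrays had correlations of -0.43, 0.41, -0.05 and -0.07 across miRNAs for numbers 1 to 4, so the numbers were not taken to pair the samples.

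The number of miRNAs called was 34 with the 75th percentile over all miRNAs and 114 to 153 with 1 array left out. The share of higher among them was 58.3%, but 67.6% under that percentile, 78.1% with no scaling, 83.4% with spike-in scaling, 46.6% with quantile normalization, 48.6% with normexp and 72.2% with no filter. Of the hypoxia-linked miRNAs, 0 rose and 0 fell by limma under that percentile, 12 and 1 with no scaling, 17 and 1 with spike-ins, and 4 and 1 with no filter. With trend and robust fitting 12 rose, and with brightness as a covariate 3 fell. With 1 array left out, 6 to 8 rose and 3 to 10 fell. With spike-in scaling miR-125b-5p and miR-20a-5p turned to 0.018 and 0.027. The call of miR-17-5p was lost in 16 of 26 alternatives, that of miR-18a-5p in 8, and that of miR-125b-5p in 9, the change of sign included. Among the named members that had missed the threshold, miR-130a-3p gained a call in 8 of 26 and miR-21a-5p in 7. For miR-24-3p, miR-107-3p and miR-155-5p it was 6, 4 and 3. Apart from the scalings and filters, the cause of these moves was not tested. Alternatives for miR-210-5p and for the difference between the arms were not run, since the 5p arm was at the floor on every array.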

Other observations

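Among 268 others detected on all 8 arrays, the miRNAs with the highest Pearson correlation with miR-210-3p, group difference included, were miR-30c-5p, miR-30e-3p, miR-30a-5p and miR-10a-5p, which are abundant in kidney tubules. These correlations on the log2 scale were 0.96, 0.96, 0.95 and 0.95, and 0.94, 0.89, 0.88 and 0.83 after removing the group means, where they ranked 4, 8, 9 and 12. By that second measure miR-9-5p, miR-3470a and miR-690 came first, with 0.96, 0.96 and 0.95, and none of these 3, named after their values were seen, passed the threshold (changes of 0.15, -0.58 and -0.47). These are descriptions over 8 arrays that share slide, scan and scaling, and the miRNAs named were the highest of many. The first 4 rose, by 0.26, 0.30, 0.17 and 0.21 on the log2 scale (adjusted p from 0.00306 to 0.0197, limma), and thus by less than miR-210-3p. Their correlations with array brightness after removing the group means were 0.79, 0.75, 0.68 and 0.80, beside 0.93 for miR-210-3p. The call of miR-30a-5p was lost without db/db replicate 2, with 0.11, and that of miR-10a-5p without any 1 of control replicates 2 and 3 and db/db replicates 1, 2 and 4, with 0.15 to 0.21. Over all 26 alternatives the calls of miR-30c-5p, miR-30e-3p, miR-30a-5p and miR-10a-5p were lost in 1, 1, 6 and 11. The lowest change was 0.08 for miR-30a-5p and 0.04 for miR-10a-5p.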
